A study of Bos taurus with 23 samples.

Results

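Transcripts of ribosome biogenesis and of the RNA exosome were followed through bovine oocytes and preimplantation embryos. The set comprised genes whose single platform symbol starts with NOP, UTP, RRP, NOL, EXOSC or POLR1, together with NHP2, EMG1, FBL, DKC1, GAR1, NCL and PES1. This rule, which uses names and no measured value, found 49 of the 9155 genes that the array names with a single symbol. They are carried by 75 probe sets, and the probe set whose mean over all arrays was highest stands for its gene. NPM1, BOP1, RRS1 and NIP7 also belong to the rule and were not analysed here. NOL3 enters the set by its prefix alone, since it encodes an inhibitor of apoptosis and not a ribosome factor, and it is described apart from the others.

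Ribosomes are built in the nucleolus, where RNA polymerase I transcribes the long precursor of the ribosomal RNAs. Small nucleolar ribonucleoproteins of the box C/D type guide methylation of this precursor and those of the box H/ACA type guide pseudouridylation, while the small subunit processome and the large subunit assembly factors fold and cut it. The RNA exosome is a ring of subunits with a cap and associated nucleases that trims the precursors from the 3′ end and degrades faulty RNA. Oocytes carry a large maternal store of ribosomes, and active nucleoli are known to appear in cattle embryos around the time when the embryonic genome is transcribed.

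Poly(A)+ RNA was measured on 23 bovine GeneChip arrays in 8 groups, namely oocytes cultured in vitro (3 arrays), oocytes from preovulatory follicles of 9 animals on day 0, called in vivo oocytes (3), zygotes (3), 2-cell (2), 4-cell (2) and 8-cell embryos (4), morulae (3) and blastocysts (3). All embryos were produced in vivo after insemination with semen from 1 Holstein-Friesian bull, and the labels name no genetic change in any group. Zygotes to 8-cell embryos came from oviduct flushings of 24 cows between days 1 and 4 and were pooled by 10, and the design text describes the last of them as 8- to 16-cell stages. Morulae (pools of 10) and blastocysts (pools of 5) were flushed from the uterus of 7 animals on day 7 or 8. The labels give no culture conditions for the in vitro oocytes and no pool size for either oocyte group, and they do not say whether pools of a group came from separate donors, so p-values measure the spread between these arrays. From in vivo oocyte to zygote, from 8-cell embryo to morula and from in vivo oocyte to blastocyst, stage cannot be told apart from donors, site and day of collection. For zygotes to 8-cell embryos, and for morulae and blastocysts, the labels give no day or donors of each pool. In the steps among those stages, stage cannot be told apart from donors and day either. The labels give no donors or day for the in vitro oocytes, so culture cannot be told apart from these either.

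Levels below are the deposited GCRMA log2 values, on which a difference of 1 is a doubling, and group values are means ± SD. A log2 value of 4 was taken as the level under which signal is not told from background. The values are quantile normalised, so each rise or fall is relative to the other transcripts. In pools of whole embryos, fewer cells of a type and less RNA per cell cannot be told apart, nor can the amount of a transcript and the length of its poly(A) tail. Array medians ran from 3.28 to 3.60 and 43.3 to 47.0% of probe sets lay above 4 on each array. The mean level of 8 oocyte marker genes was 12.2 to 13.7 up to the 4-cell stage, 8.05 to 9.73 on the 8-cell arrays and at most 3.44 later, while all 4 measured trophectoderm genes lay above 4 on the blastocyst arrays. Some arrays carried markers of other cells. On in vivo oocyte array 2, 10 of 12 cumulus and granulosa genes lay above 4 (mean 7.31, against 4.13 to 4.16 and 4 to 5 genes on the other arrays of that group). On 4-cell array 1, 9 of 10 blood and leukocyte genes did so (mean 8.08 against 3.03 on array 2), and on 2-cell array 1, 3 of 6 oviduct and uterus genes did so (mean 6.09 against 3.30). Blastocyst array 1 likewise had 3 of 6 oviduct and uterus genes above 4 (mean 5.73 against 3.84 to 3.98). Results that rest on these arrays are given with and without them.

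The 8-cell stage was the point of highest level for most of the set. Of the 49 genes, 33 (67.3%) had their highest in vivo group mean in 8-cell embryos, compared with 23.4% of the 7070 genes tested. With all 3 in vivo oocyte arrays, none had it in the in vivo oocyte, and this was not counted without array 2. That array was low in EXOSC9 (12.78, 9.18 and 11.94, against a highest group mean of 12.10 in 8-cell embryos). It was also low in DKC1 (11.91, 9.93 and 11.12, against 11.50 in morulae). In 21 members (42.9%), each of the 4 8-cell arrays read higher than every one of the other 19 arrays, which held for 11.5% of all genes. These 21 were the polymerase subunit POLR1C, the small nucleolar ribonucleoprotein genes NOP56 and NHP2, the nucleolar genes NCL and NOLC1, the small subunit genes EMG1, NOL6, NOL10, NOL11, NOP14, RRP7, RRP9, RRP12, UTP3, UTP4 and UTP25, the large subunit genes NOL8, NOP2 and RRP15, and the exosome genes EXOSC1 and EXOSC2. A lasting step up was also common. In 17 members (34.7%, against 14.6% of all genes), all arrays from the 8-cell stage on lay above all earlier arrays, in vitro oocytes included, and these included FBL, NOL7, NOP16, PES1, POLR1F, UTP11 and EXOSC6. The opposite step down was found in 3 members (6.12%, against 16.8% of all genes), POLR1B, UTP18 and EXOSC3. These counts are descriptions of the arrays with no test.

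**Figure D1:**
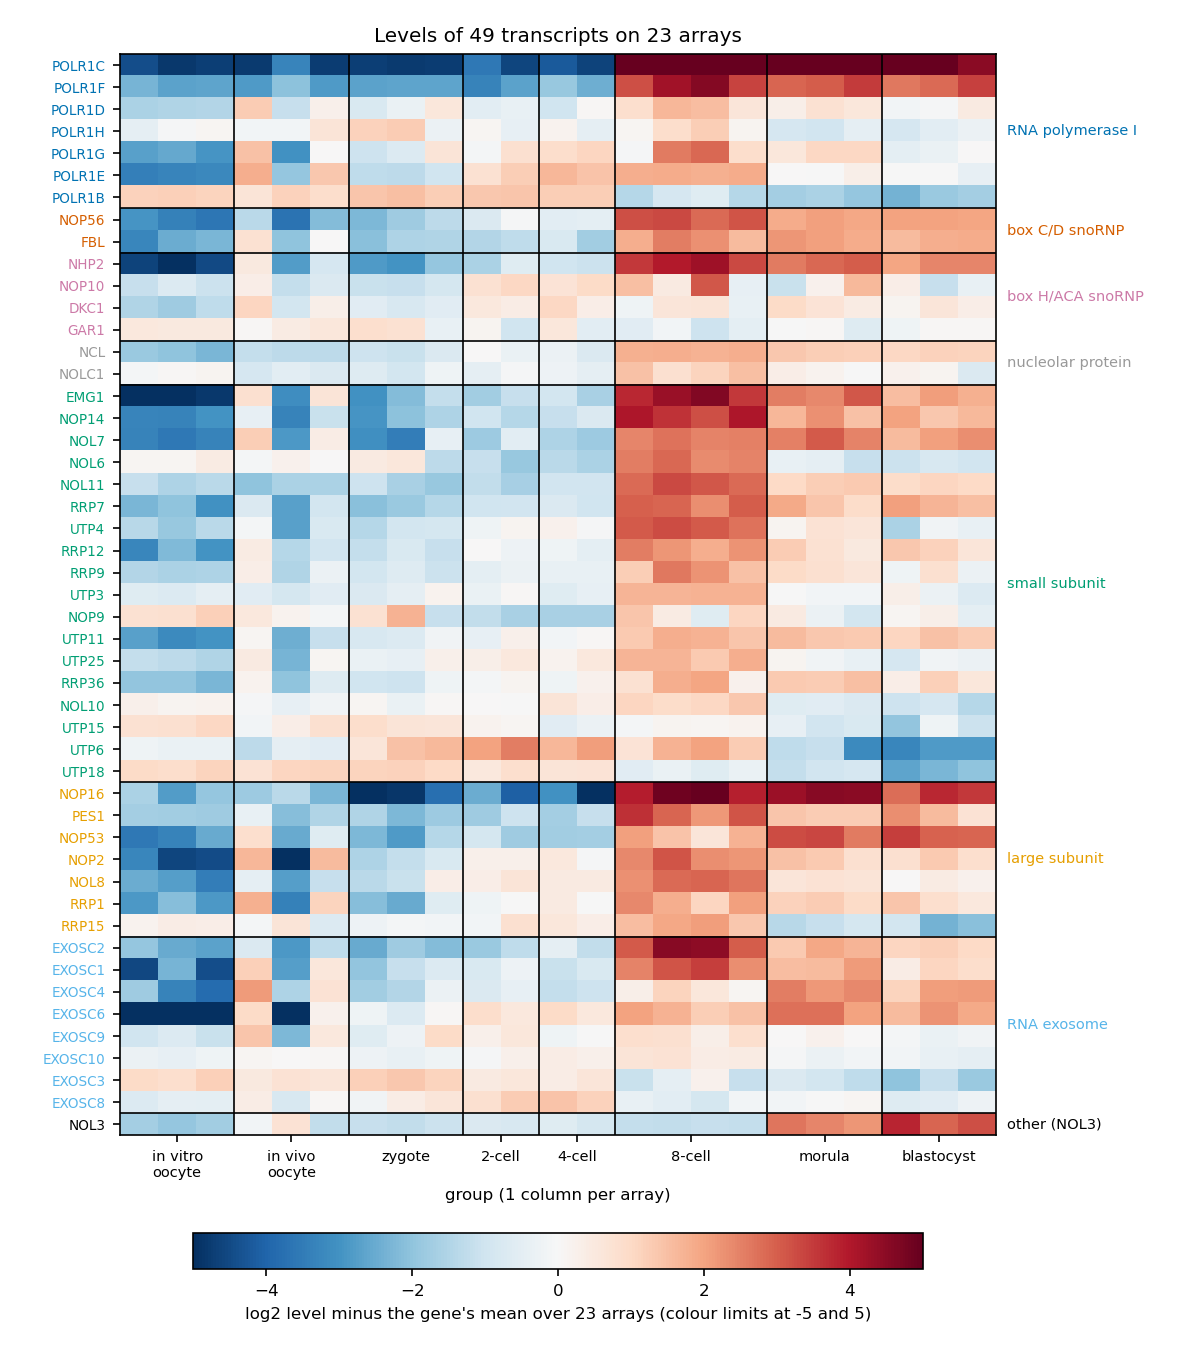
Heat map of 49 transcripts (rows, grouped by role) on 23 arrays (columns, grouped by stage); colour gives the log2 level minus the gene's own mean over the 23 arrays, with colour limits at -5 and 5. Most rows are red in the 4 8-cell columns, where 33 of 49 genes have their highest in vivo group mean, and POLR1B, UTP18 and EXOSC3 show the reverse step.

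From the 4-cell to the 8-cell stage, 29 members rose and 4 fell, while 16 did not pass the test. A member is called changed when its limma p-value, adjusted by the Benjamini-Hochberg method over all 14571 probe sets tested, was under 0.05. Over all genes tested, 31.2% rose and 34.3% fell in this step, whereas 59.2% of the members rose and 8.16% fell. The median change of the members was 1.64 on the log2 scale, and that of all genes was -0.03. All 8-cell arrays lay above both 4-cell arrays in 36 members and below both in 5, against 34% and 37.1% of all genes. Rises came from each of the ribosome and exosome roles, with 14 of 18 small subunit genes, 5 of 7 large subunit genes, both box C/D genes, both abundant nucleolar proteins, 3 of 7 polymerase subunits, 1 of 4 box H/ACA genes and 2 of 8 exosome subunits. The 4-cell group had 2 arrays only, and array 1 carried the blood markers given above. Without that array 31 members were called, 27 up and 4 down.

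**Figure D2:**
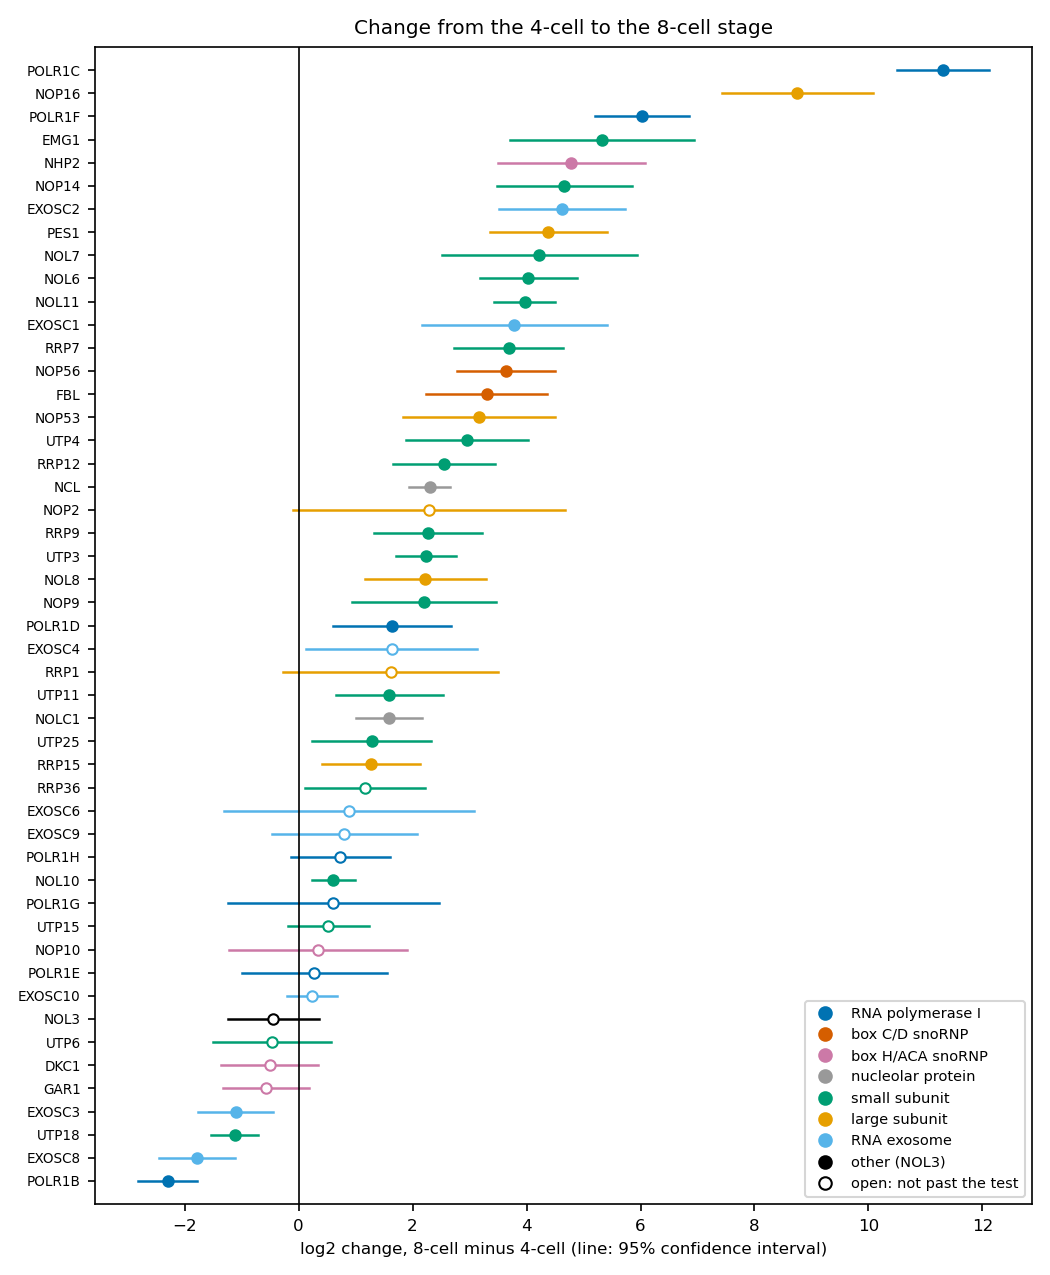
Change of each of 49 transcripts from the 4-cell (2 arrays) to the 8-cell stage (4 arrays) in log2 units (horizontal axis) with its 95% confidence interval; colours give the role and open circles mark genes that did not pass the test. POLR1C, NOP16 and POLR1F lie farthest to the right with changes of 11.32, 8.75 and 6.02, and POLR1B lies lowest with -2.30.

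The subunits of RNA polymerase I did not move together. POLR1C, a subunit shared by RNA polymerases I and III, read 2.98 and 2.55 on the 4-cell arrays and 13.98, 14.21, 14.11 and 14.02 on the 8-cell arrays. All 13 arrays before the 8-cell stage lay below 4 for this gene. Its level at the 8-cell stage was therefore at least 1081-fold higher than at the 4-cell stage (change 11.32, SE 0.39, adjusted p = 2.56e-14), and the means stayed at 12.45 ± 0.13 in morulae and 12.08 ± 0.35 in blastocysts. POLR1F, which belongs to the stalk of the enzyme, stood at 4.54 and 3.99 on the 4-cell arrays and at 9.67, 10.64, 11.02 and 9.81 on the 8-cell arrays, at least 64.7-fold higher (adjusted p = 1.17e-10). Both genes were thus near or under the background level before the 8-cell stage and well above it on every later array. POLR1D, the partner of POLR1C, was measured from the oocyte on and rose from 10.38 and 11.45 to 12.23, 13.06, 12.94 and 11.98 (3.12-fold, adjusted p = 0.00668). That call rested on 4-cell array 1, without which the change was 1.11 and did not pass (adjusted p = 0.144).

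POLR1B, the second-largest subunit and part of the catalytic centre, went the other way. It read 12.56 and 12.57 at the 4-cell stage and 9.90, 10.51, 10.73 and 9.92 at the 8-cell stage, a fall of 4.92-fold (change -2.30, SE 0.25, adjusted p = 1.37e-07). Its means then went from 9.60 ± 0.17 in morulae to 9.37 ± 0.35 in blastocysts, against 12.24 ± 0.26 in in vivo oocytes. POLR1E, which forms the accessory heterodimer with POLR1G, had group means of 12.41 ± 0.19 and 12.69 ± 0.04 at the 4-cell and 8-cell stages and did not pass this step (change 0.28, SE 0.61). Neither POLR1G nor POLR1H, the subunit for transcript cleavage, passed it. POLR1G spread widely within the 8-cell group, with 7.41, 10.07, 10.32 and 8.35 on its arrays.

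Among the small nucleolar ribonucleoproteins, both measured box C/D proteins rose. FBL, the methyltransferase fibrillarin, read 11.08 and 10.09 on the 4-cell arrays and 13.62, 14.39, 14.12 and 13.39 on the 8-cell arrays (9.84-fold, adjusted p = 1.08e-05). NOP56, a scaffold protein of the same particle, read 10.85 and 10.91 and then 14.61, 14.70, 14.22 and 14.53 (12.4-fold, adjusted p = 2.38e-07). All 8-cell arrays lay above both 4-cell arrays in both genes, as in 34% of all genes.

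Of the 4 box H/ACA proteins, NHP2 alone passed the test. It read 9.18 and 9.10 at the 4-cell stage and 13.69, 14.13, 14.40 and 13.48 at the 8-cell stage, a 27.6-fold rise (adjusted p = 1.35e-06). DKC1, the pseudouridine synthase dyskerin, did not pass (change -0.50, 95% interval -1.35 to 0.35), with 11.85 and 11.14 against 10.62, 11.44, 11.45 and 10.46. GAR1 did not pass either (-0.57, 95% interval -1.32 to 0.18), nor did NOP10 (0.34, 95% interval -1.23 to 1.91), whose 8-cell arrays ran from 4.76 to 8.28. Differences between these genes were not tested.

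NCL and NOLC1 encode the abundant nucleolar proteins nucleolin and a chaperone of small nucleolar ribonucleoproteins. NCL read 12.14 and 11.72 on the 4-cell arrays and 14.22, 14.27, 14.17 and 14.25 on the 8-cell arrays. This was a 4.92-fold rise (adjusted p = 6.91e-10). NOLC1 rose by 1.58 on the log2 scale, from 10.90 and 10.70 to 12.63, 11.96, 12.27 and 12.67 (adjusted p = 5.02e-05).

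Small subunit processome genes made up the largest block of rises. EMG1, a methyltransferase of the small subunit RNA, read 8.26 and 7.56 on the 4-cell arrays and 12.95, 13.51, 13.80 and 12.70 on the 8-cell arrays, 40.1-fold higher (adjusted p = 5.88e-06). NOP14 rose 25.4-fold, from 7.55 and 7.98 to 12.76, 12.31, 11.91 and 12.75 (adjusted p = 6.24e-07). NOL7, NOL6 and NOL11 rose 18.7-fold, 16.4-fold and 15.7-fold, and the last of these read 9.54 and 9.51 before and 13.30, 13.77, 13.58 and 13.32 after (adjusted p = 1.01e-10). Each of these genes had all 8-cell arrays above both 4-cell arrays, as did 34% of all genes. Smaller rises were found in RRP7 (12.9-fold), UTP4 (7.73-fold), RRP12 (5.88-fold), RRP9 (4.83-fold), UTP3 (4.71-fold), NOP9 (4.61-fold), UTP11 (3.02-fold), UTP25 (2.43-fold) and NOL10 (1.53-fold). UTP25 lost its call without 4-cell array 1 (change 1.11), 4-cell array 2 (1.45) or 8-cell array 4 (1.22), and NOL10 without 4-cell array 2 (0.45).

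UTP18, a WD-repeat protein of the processome, was the single small subunit gene that fell. It read 12.59 and 12.63 on the 4-cell arrays and 11.40, 11.61, 11.34 and 11.62 on the 8-cell arrays, a 2.17-fold fall (adjusted p = 5.71e-05). UTP6, UTP15 and RRP36 did not pass, and RRP36 had a change of 1.17 (95% interval 0.11 to 2.23, adjusted p = 0.0503).

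Large subunit assembly factors rose in 5 of 7 cases. NOP16 read 5.84 and 3.29 on the 4-cell arrays and 12.82, 13.76, 13.91 and 12.78 on the 8-cell arrays, at least 337-fold higher (change 8.75, SE 0.63, adjusted p = 4.94e-10). The 4-cell arrays differed widely and array 2 lay below 4, so the size of this rise is less certain than its direction. PES1, the pescadillo protein of a complex needed for large subunit maturation, read 5.47 and 6.01 and then 10.80, 10.06, 9.32 and 10.30 (20.8-fold, adjusted p = 2e-07). NOP53, an adaptor between pre-ribosomes and the exosome, rose 8.98-fold, from 7.71 and 7.76 to 11.50, 10.87, 10.05 and 11.18 (adjusted p = 0.000227). NOL8 rose 4.68-fold and RRP15 2.41-fold, the latter losing its call without 4-cell array 2 (change 1.16). NOP2, an RNA methyltransferase, and RRP1 did not pass although all their 8-cell arrays lay above both 4-cell arrays, as in 34% of all genes. Their changes were 2.29 (95% interval -0.10 to 4.67) and 1.62 (-0.27 to 3.51).

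The exosome split by subunit. The cap proteins EXOSC1 and EXOSC2 rose, from 9.15 and 9.48 to 12.72, 13.39, 13.71 and 12.57 in EXOSC1 (13.8-fold, adjusted p = 0.000266) and from 6.62 and 5.82 to 10.13, 11.62, 11.52 and 10.08 in EXOSC2 (24.6-fold, adjusted p = 2.89e-07). EXOSC3, the remaining cap protein, fell 2.15-fold, from 11.89 and 12.14 to 10.41, 11.10, 11.76 and 10.39 (adjusted p = 0.00486). Without 4-cell array 2 its change was -0.98 and did not pass. EXOSC8, a subunit of the ring, fell 3.44-fold, from 11.18 and 10.91 to 9.39, 9.20, 8.86 and 9.60 (adjusted p = 7.29e-05). The ring subunits EXOSC4, EXOSC6 and EXOSC9 and the nuclear exonuclease EXOSC10 did not pass, with changes of 1.63, 0.88, 0.81 and 0.23. Of these, EXOSC4 had the lowest adjusted p (0.0528).

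**Figure D3:**
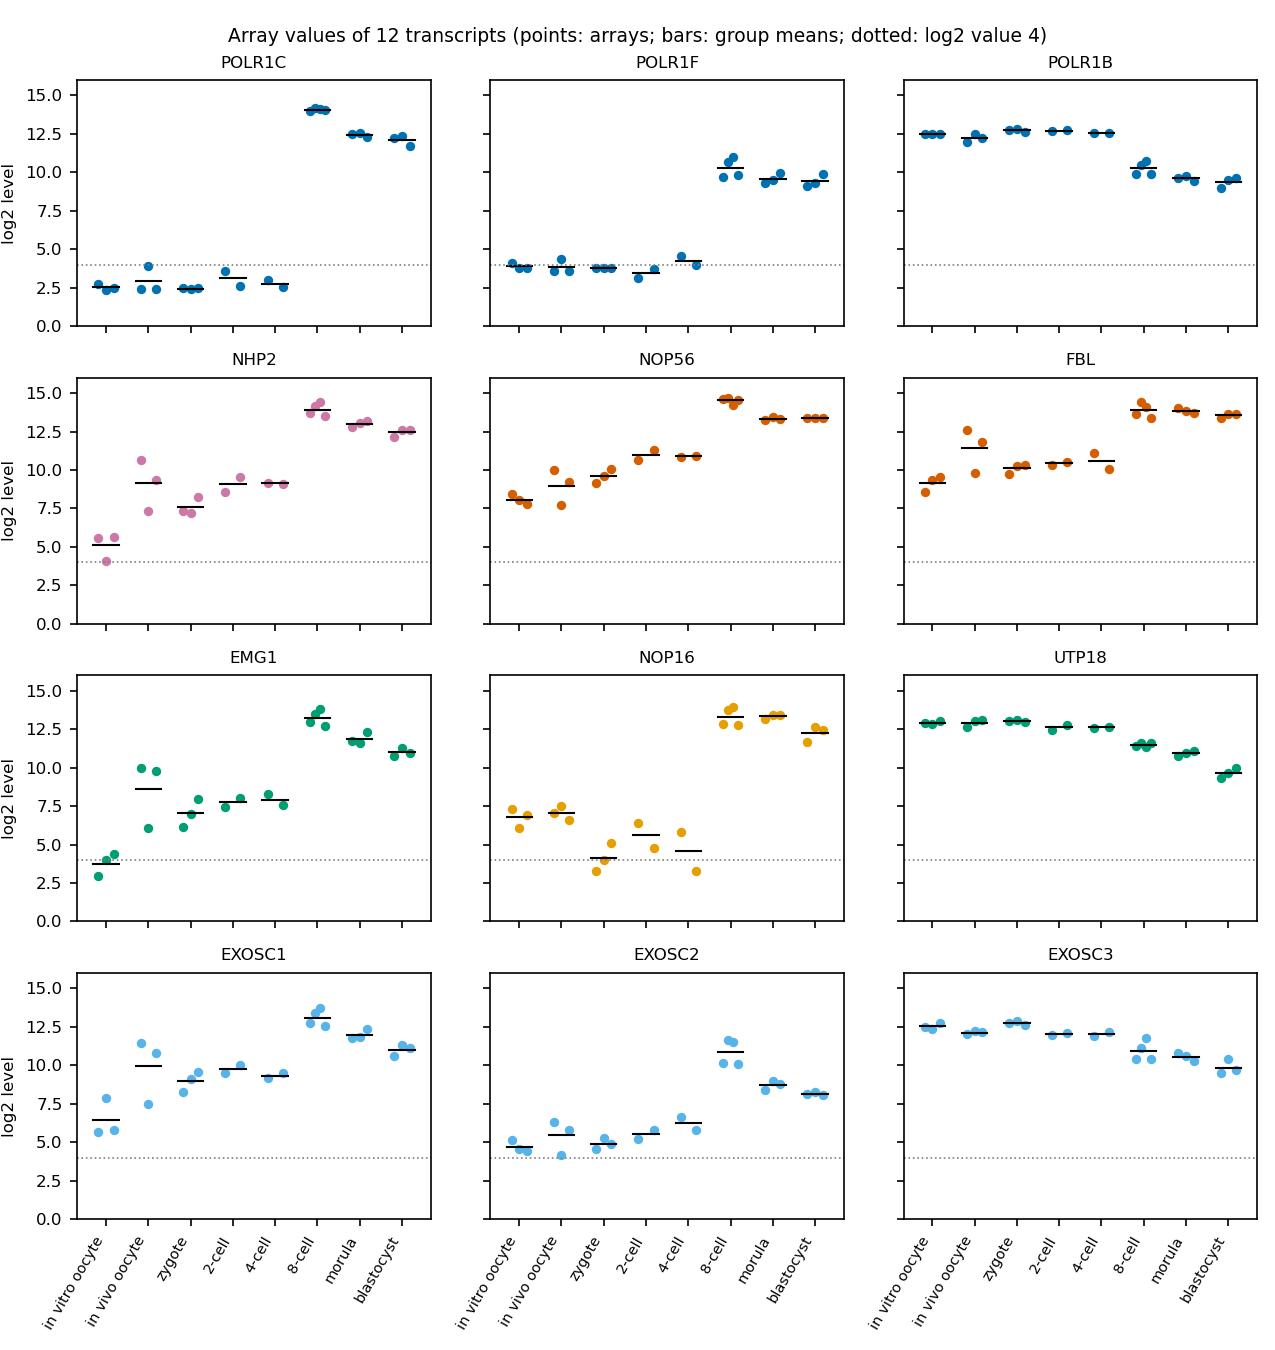
Log2 levels of 12 transcripts on every array (points) by group, with group means as bars and a dotted line at a log2 value of 4. POLR1C and POLR1F go from near or below the dotted line to between 9.67 and 14.21 on the 8-cell arrays, NOP16 is above the line in oocytes, at 3.29 to 5.10 in zygotes and at 12.78 to 13.91 on the 8-cell arrays, and POLR1B, UTP18 and EXOSC3 step down.

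From the 8-cell stage to the morula, 25 members fell, 3 rose and 21 did not pass. Over all genes tested 28.4% fell and 30% rose, against 51.0% and 6.12% of the members. The median change was -0.91 in the members and 0.03 in all genes. This step shares its 8-cell arrays with the step before it, so the directions of both are not independent. Falls covered 13 of 18 small subunit genes, 4 of 7 polymerase subunits, 3 of 7 large subunit genes, NCL, NOLC1, NOP56, EXOSC2 and EXOSC10. Leaving out single arrays gave 25 to 29 calls.

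The deepest fall was in UTP6, which read 8.88, 9.97, 10.22 and 9.47 on the 8-cell arrays and 6.93, 7.07 and 5.04 in morulae (9.77-fold, adjusted p = 2.67e-06). NOL6 went from 12.09, 12.41, 11.89 and 11.99 to 9.16, 9.06 and 8.38 (9.37-fold, adjusted p = 2.61e-07). RRP15, a large subunit factor, fell 7.33-fold, from 10.31, 10.68, 10.84 and 10.10 to 7.36, 7.61 and 7.87 (adjusted p = 1.29e-06). The morula arrays of these genes lay below all 8-cell arrays, as in 27.8% of all genes. UTP4, one of the processome proteins linked to transcription of the precursor, fell 5.80-fold, from 12.37, 12.57, 12.36 and 12.02 to 9.44, 10.03 and 9.92 (adjusted p = 8.39e-05). EXOSC2 fell 4.39-fold to 8.38, 8.99 and 8.76 (adjusted p = 0.000659).

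In the 17 members with a lasting step up, the morula arrays lay by definition above every array before the 8-cell stage. Among these, POLR1C fell 3.09-fold to 12.49, 12.55 and 12.31 (adjusted p = 0.000424), and NOP56 fell 2.27-fold to 13.25, 13.44 and 13.31 (adjusted p = 0.00918). Falls of this size left both genes far above their 4-cell means of 2.76 ± 0.31 and 10.88 ± 0.04. NOP16, NOL7, FBL, NHP2, EMG1 and POLR1F did not pass this step. NOP16 had means of 13.32 ± 0.60 at the 8-cell stage and 13.33 ± 0.14 in morulae, and FBL had 13.88 ± 0.45 and 13.86 ± 0.17.

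The 3 members that rose into the morula were NOP53, EXOSC4 and NOL3. NOP53 went from 11.50, 10.87, 10.05 and 11.18 to 12.73, 12.81 and 12.05 (3.10-fold, adjusted p = 0.019). EXOSC4, a ring subunit, went from 8.08, 8.92, 8.38 and 7.90 to 10.35, 9.95 and 10.18 (3.59-fold, adjusted p = 0.0178). NOP53 lost its call without 8-cell array 3 (change 1.35), morula array 1 (1.53) or morula array 2 (1.49), and EXOSC4 without morula array 1 (1.75). NOL3, the apoptosis inhibitor caught by its prefix, read 4.30 to 4.36 on all 8-cell arrays and 8.19, 7.94 and 7.71 in morulae (12.2-fold, adjusted p = 2.73e-08). Its in vivo means before the morula ran from 4.33 to 5.30, so this gene was low at the stage where most ribosome factors were highest. Small falls that lost their call without a single array were those of RRP9 (8-cell array 2 or 3, morula array 2 or 3, changes -0.865, -0.998, -1.12 and -1.02), UTP15 (8-cell array 4, morula array 2 or 3, changes -0.77, -0.69 and -0.77), POLR1B (8-cell array 3 or morula array 3, -0.51 and -0.57) and UTP18 (morula array 1, -0.46).

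Little passed in the earlier steps. From in vivo oocyte to zygote UTP6 rose and NOP16 fell, while 47 members did not pass, against 0.891% of all genes up and 2.28% down. UTP6 read 6.92, 7.78 and 7.63 in in vivo oocytes and 8.83, 9.66 and 9.84 in zygotes (4.00-fold, adjusted p = 0.0209). NOP16 read 7.04, 7.53 and 6.57 and then 3.29, 4.02 and 5.10, at least 6.39-fold lower (adjusted p = 0.00868). NOP16 was therefore well above background in both oocyte groups, close to it in zygotes, and high again only from the 8-cell stage. Both calls depended on single arrays. UTP6 did not pass without in vivo oocyte array 1 (change 1.74) or zygote array 2 (1.89) or 3 (1.80), and NOP16 did not without zygote array 1 (-2.49). Without in vivo oocyte array 2, the array with cumulus markers, 14 members were called in this step, 13 of them down. Among those 13 were FBL, NHP2, EMG1, POLR1E, NOL7 and RRP1. The median change of the members was then -0.50, against 0.03 over all probe sets. The share of all genes called without that array was not counted.

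From zygote to 2-cell NCL alone rose, with 11.41, 11.34 and 11.74 in zygotes and 12.45 and 12.11 in 2-cell embryos (1.72-fold, adjusted p = 0.0201). In all genes 1.41% rose and 1.92% fell. NCL did not pass without zygote array 1 (change 0.74), zygote array 2 (0.71) or 2-cell array 1 (0.61), the array with oviduct markers. Zygote array 3 was the highest of its group in 31 of 49 members (63.3%, against 44.2% of all genes). Without it 7 members were called, 3 up and 4 down, and the share of all genes in that setting was not counted. The median change of the members was 0.59 in this step and 0.05 in all genes. In limma 13 members had an unadjusted p under 0.05, of which EXOSC3, GAR1, NOL6 and NOP9 fell and the others rose. The share of all genes with an unadjusted p under 0.05 was not counted in any comparison. Between 2-cell and 4-cell embryos, with 2 arrays in each group, limma called 0 of 49 members, and 1 had an unadjusted p under 0.05. In that step 0.0141% of all genes rose and 0% fell.

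From morula to blastocyst UTP18 fell again, from 10.75, 10.98 and 11.10 to 9.30, 9.68 and 9.95 (2.46-fold, adjusted p = 0.000114). All other members missed the threshold, while 3.76% of all genes fell and 5.74% rose. An unadjusted p under 0.05 was found in 6 members, a share not counted over all genes. Without morula array 3, which read 5.04 for UTP6 against 6.93 and 7.07 on the other arrays of its group, UTP6 was called lower as well. UTP18 had means of 12.93 ± 0.22 in in vivo oocytes, 13.03 ± 0.08 in zygotes, 12.62 ± 0.22 at the 2-cell and 12.61 ± 0.03 at the 4-cell stage, and none of these earlier steps passed. It then fell in every step, to 11.49 ± 0.15 at the 8-cell stage, 10.94 ± 0.18 in morulae and 9.64 ± 0.33 in blastocysts. Of the trophectoderm markers, 4 of 4 lay above 4 on each blastocyst array and 2 to 4 on the morula arrays, and their part in the result was not tested.

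Between in vivo oocytes and blastocysts, 21 members were higher in the blastocyst and 8 were lower, compared with 36.2% and 32.7% of all genes. The median change was 1.07 in the members and 0.08 in all genes. Without in vivo oocyte array 2 it was 0.07 in the members and -0.03 over all probe sets. In that setting 18 members were higher and 11 lower, and the share of all genes was not counted. Highest above the oocyte were POLR1C (at least 270-fold), POLR1F (at least 39.0-fold), NOP16 (36.5-fold), NOP56 (21.1-fold) and NOP53 (14.6-fold). NOP53, for example, read 10.29, 6.93 and 8.84 in in vivo oocytes and 12.91, 12.39 and 12.38 in blastocysts (adjusted p = 1.17e-05). NOP56 read 10.02, 7.71 and 9.21 in oocytes and 13.40, 13.39 and 13.37 in blastocysts (adjusted p = 6.12e-09). All blastocyst arrays lay above all in vivo oocyte arrays for these genes, as in 36.3% of all genes. The members lower in the blastocyst were UTP18 (9.73-fold), POLR1B (7.34-fold), EXOSC3 (4.85-fold), UTP6 (4.62-fold), RRP15 (3.35-fold), UTP15 (2.69-fold), NOL6 (1.98-fold) and NOL10 (1.85-fold). EXOSC3 read 12.00, 12.25 and 12.14 in oocytes and 9.51, 10.38 and 9.66 in blastocysts (adjusted p = 1.35e-06). NOL6, NOL10 and RRP15 thus had their highest level at the 8-cell stage and ended below the oocyte. NOL6 lost its call without in vivo oocyte array 2 (change -0.90) or 3 (-0.998) or blastocyst array 1 (-0.92) or 3 (-0.98). EMG1, NOL7 and RRP36, all higher in the blastocyst, lost theirs without in vivo oocyte array 2, with changes of 1.09, 1.19 and 0.93.

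**Figure D4:**
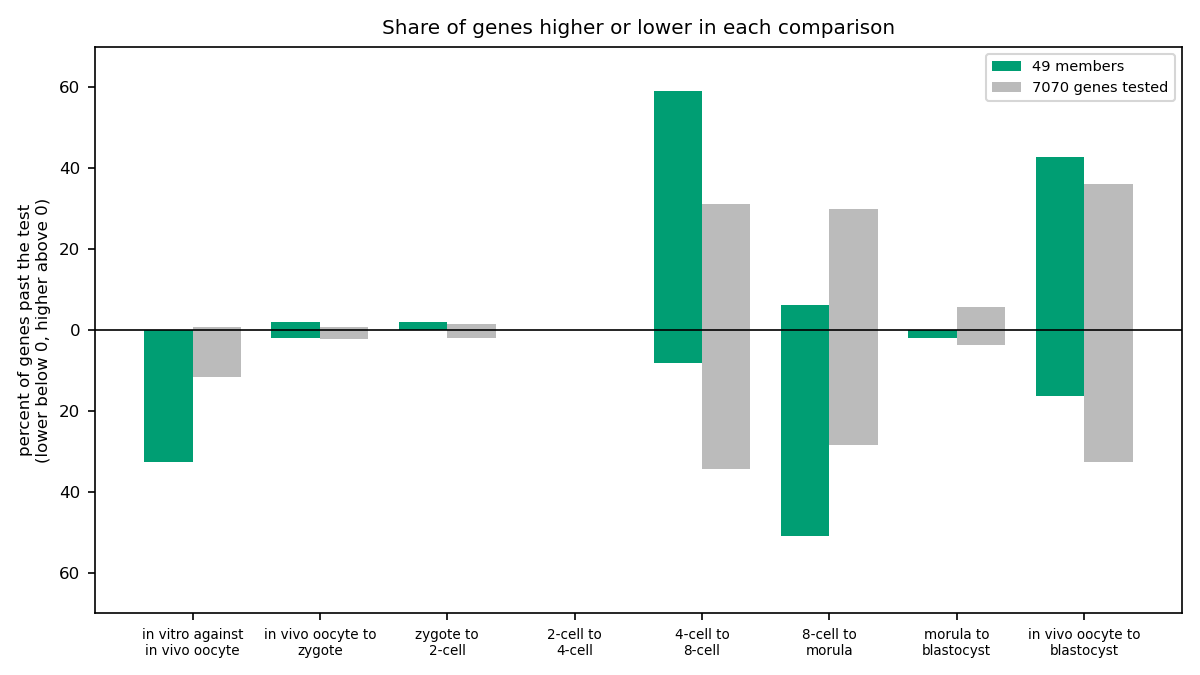
Percent of the 49 members (green) and of the 7070 genes tested (grey) that rose (above 0) or fell (below 0) in each of 8 comparisons. The members exceed all genes most in the rise from the 4-cell to the 8-cell stage (59.2% against 31.2%), in the fall that follows (51.0% against 28.4%) and in the genes lower in vitro (32.7% against 11.7%).

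Oocytes labelled as cultured in vitro were compared with in vivo oocytes. In vitro, 16 members (32.7%) were lower and limma called none higher, against 11.7% of all genes lower and 0.721% higher. An unadjusted p under 0.05 was found in 26 members, with NOL10 and NOLC1 higher in vitro and the others lower. That share was not counted over all genes. The median change of the members was -0.76, and that of all genes was 0.02. The 16 came from every role, namely POLR1D and POLR1E, FBL, DKC1 and NHP2, NCL, 4 small subunit genes (EMG1, NOL7, RRP12, UTP11), NOP2 and NOP53, EXOSC1, EXOSC4 and EXOSC6, and NOL3.

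EMG1 read 2.94, 4.01 and 4.36 in vitro and 9.99, 6.06 and 9.81 in vivo, at least 22.6-fold lower in vitro (adjusted p = 0.000322). NHP2 read 5.56, 4.09 and 5.65 against 10.66, 7.36 and 9.35 (change -4.02, SE 0.58, adjusted p = 0.000245). POLR1E read 7.46, 7.58 and 7.65 against 12.69, 8.92 and 12.21 (13.1-fold lower, adjusted p = 0.000403). In each of these genes all in vitro arrays lay below all in vivo arrays, as in 17.1% of all genes. In vivo array 2 was the in vivo array nearest to the in vitro values.

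EXOSC6, a ring subunit, read 2.17, 3.07 and 2.47 in vitro and 9.36, 2.88 and 8.60 in vivo, so that in vivo array 2 fell among the in vitro arrays. Its difference was at least 7.70-fold (adjusted p = 0.00742) and was not called without in vivo array 1 (change -3.17) or 3 (-3.55). NOP2 behaved alike, with 5.01, 3.65 and 3.76 against 9.90, 3.22 and 9.82 (at least 9.92-fold, adjusted p = 0.0482), and lost its call when any array other than in vivo array 2 was left out, with changes of -3.94 to -2.38. EXOSC1 (change -3.46, adjusted p = 0.00457) also overlapped, with 5.69, 7.90 and 5.80 against 11.45, 7.50 and 10.82. EXOSC4 did not overlap, with a mean of 4.81 ± 1.07 in vitro against 9.94, 6.27 and 8.54 (at least 10.8-fold, adjusted p = 0.00256). The remaining differences ran from 1.69-fold in NCL to 7.90-fold in NOL7, with 5.18-fold in NOP53 and 4.81-fold in FBL.

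In vivo array 2 stood apart in this comparison. It was the lowest of its group in 33 of 49 members (67.3%), against 37.7% of all genes, and lay a median of 1.53 below the mean of the other in vivo arrays in the members. It was also the array with 10 of 12 cumulus and granulosa genes above 4. The 8 oocyte markers, which lie outside the set, had a mean of 12.24 on this array and 12.56 to 12.88 in vitro, against 13.65 and 13.30 on in vivo arrays 1 and 3. Of the 12 cumulus and granulosa genes, 5 to 7 lay above 4 on the in vitro arrays (mean 4.14 to 5.29). The part of RNA from such cells in the values was not tested. Without in vivo array 2, 26 members were lower in vitro, and the share of all genes in that setting was not counted. They were the 16 named above and EXOSC9, NOL8, NOP14, NOP56, POLR1G, RRP1, RRP36, RRP7, RRP9 and UTP25. The median change was then -1.37 in the members and 0.12 over all probe sets. Without in vivo array 1, 8 members were called and the median change was -0.40. The 8 genes called whichever single array was left out were EMG1, EXOSC4, FBL, NCL, NHP2, NOL3, POLR1E and RRP12. Of these, NOL3 lay below 4 on every in vitro array, and its other probe set had a change of 0.01. NCL and NOL3 lost their calls when arrays were centred on spike-in controls. NOL3 also lost its call when its probe sets were averaged. None of the 16 was called when the spread was taken from the 6 oocyte arrays alone.

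**Figure D5:**
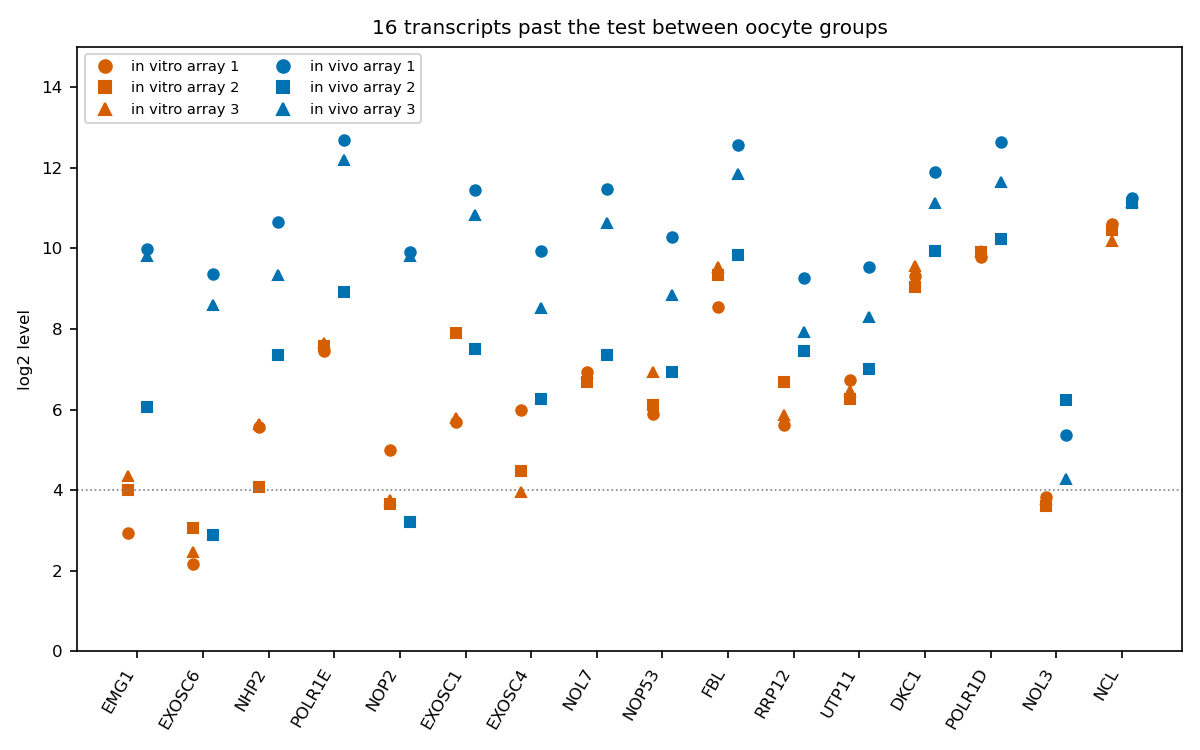
Log2 levels of the 16 transcripts past the test between in vitro (orange) and in vivo (blue) oocytes, with a marker shape for each array number and a dotted line at a log2 value of 4. In vivo array 2 (blue squares) lies nearest to the in vitro arrays or among them in most genes, for example at 2.88 in EXOSC6.

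Some members passed in no comparison. These were GAR1 (in vivo group means 12.43 to 13.41), EXOSC9 (11.22 to 12.10), NOP10 (4.10 to 6.33), POLR1G (6.94 to 9.04) and RRP1 (6.49 to 10.08). GAR1 therefore stayed within 1 log2 unit across all in vivo groups, while the range of RRP1 was wide but so was its spread in in vivo oocytes, with 10.03, 4.87 and 9.34. NCL was called in 5 of the 8 comparisons, the most of any member, and NOP53, RRP12 and UTP18 were called in 4.

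Further probe sets give a check within the array. Of the 13 members with more than 1 tested probe set, 9 were called on the chosen probe set from the 4-cell to the 8-cell stage, and in 6 of these all probe sets were called in the same direction. The exceptions were NOP53, NOP9 and UTP11, whose other probe sets did not pass. NOP2 had other probe sets with changes of 0.12 and -0.71 in this step against 2.29 on the chosen probe set, so its level at the 8-cell stage depends on the probe set. From the 8-cell stage to the morula 7 of 8 such genes were called on all probe sets, but between the oocyte groups only 1 of 7 was, POLR1E. In that comparison the second probe set of EXOSC6 had a change of -0.84 and that of NOP53 -0.19. No gene was called in opposite directions in these 3 comparisons.

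A list of 80 further genes of ribosome assembly, polymerase I factors and exosome cofactors was read in the same fit. From the 4-cell to the 8-cell stage 51 of the 80 rose and 11 fell (median change 1.63; 31.2% and 34.3% of all genes), and from the 8-cell stage to the morula 50 fell and 2 rose (median -1.36; 28.4% and 30% of all genes). The largest rises were in KRR1, a small subunit factor (change 9.31, adjusted p = 2.1e-12), MDN1, the AAA ATPase midasin of large subunit maturation (8.39, adjusted p = 2.5e-12), and WDR55 (7.85, adjusted p = 6.32e-11). The largest falls were in SBDS, which helps to release the anti-association factor EIF6 from the large subunit (-4.51, adjusted p = 1.4e-09), the large subunit export adaptor NMD3 (-3.76, adjusted p = 2.23e-09) and LTV1, a late small subunit factor (-2.39, adjusted p = 0.00193). Into the morula the largest falls were in TAF1B, part of the promoter factor of RNA polymerase I (-4.11), the exosome nuclease DIS3L (-3.86) and SDAD1 (-3.79), and SBDS (1.32) and SNU13 (0.68) rose.

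In in vitro oocytes 18 of the 80 (22.5%) were lower, led by NOC2L (-3.45), PDCD11 (-3.35) and EIF6 (-3.32), and limma called none higher, against 11.7% of all genes lower and 0.721% higher. In alternatives added after the data were seen, 9 were called without in vivo array 1, 10 without in vivo array 3, 29 without in vivo array 2 and 0 with the spread of the oocyte arrays alone. Between in vivo oocyte and blastocyst 31 (38.8%) were higher and 28 (35.0%) lower, with a median change of -0.05, shares near those of all genes (36.2% and 32.7%). The largest changes were those of KRR1 (7.78) and WDR18 (6.61) upward and TAF1A (-5.36), another part of the promoter factor, and LTV1 (-3.53) downward. In the small steps few passed. NSA2 and RUVBL1 fell into the zygote (2.5%, against 2.28% of all genes). Into the 2-cell stage NSA2 and WDR18 rose (2.5%, against 1.41% of all genes), the latter from a zygote mean of 3.31, under background. MDN1, TEX10 and RSL1D1 fell in that step (3.75%, against 1.92% of all genes). None changed from the 2-cell to the 4-cell stage. Into the blastocyst 4 fell (5%, against 3.76% of all genes), among them MPHOSPH6, a cofactor of the nuclear exosome (-1.57), and TAF1A (-1.36).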

How the data were processed

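Poly(A)+ RNA was hybridised to 23 GeneChip arrays. The authors deposited log2 expression values made with GCRMA 2.0.0, per the submitters' processing notes; GCRMA corrects background, quantile normalises and summarises each probe set. The scale was checked on the values. No coordinates or sequences were used. Of 24128 probe sets, 112 controls were left out. Of the remaining 24016, 13292 carry 1 platform symbol, 86 several (not used) and 10638 none. All 49 member symbols matched a RefSeq table.

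Probe sets above 4 on at least 2 arrays were tested (14571, all 49 members among them, and 7070 genes by their highest probe set). limma 3.58.1 in R 4.3.3 fitted 8 group means with a shared spread (15 residual degrees of freedom, eBayes with trend, two-sided). An adjusted p under 0.05, by Benjamini-Hochberg per comparison, was called. Where an array of the lower group lay below 4, it was set to the higher of 4 and its own value, and the fold is given as at least that size. Members may all be named; array values are given for the called members with the largest changes and for each role, and at most 3 called genes of the 80-gene list per direction.

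The members, lists and tests were chosen with earlier results of these data known. For same-numbered arrays of different groups, deviations from group means correlated between -0.377 and 0.491 over 71 pairs, 19 of them above 0.1. Arrays with different numbers were not correlated for comparison, so these values cannot decide whether arrays were paired. The labels do not say that numbers pair arrays, and numbers were not treated as pairs in the main fit. The fit was tested on simulated data. The number of arrays limits the precision. Alternatives were no filter, a stricter filter (above 5 on 3 arrays), averaging the probe sets of a gene, the spread of the compared groups alone, no trend, spike-in centring, a replicate block, each array left out, and 4 arrays with markers of other cells left out together.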

Additional observations from a re-analysis of the deposited data

Results flagged for a closer look

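In EXOSC9, a ring subunit of the exosome, 8-cell array 3 stood apart from its group. It read 11.7, while the other 8-cell arrays ran from 12.20 to 12.26, so its gap to the nearest array took up 0.877 of the whole range, above Dixon's 95% critical value for 4 arrays. Chance sets apart about 1 in 20 such groups. The 8-cell arrays of all 49 members were screened in this way and 1 member was set apart, a share below that. EXOSC9 passed the test in no comparison.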

How the results depend on the processing

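No called member changed direction under any alternative run. Of the 33 calls from the 4-cell to the 8-cell stage 28 held under every alternative, as did 20 of 28 from the 8-cell stage to the morula and 23 of 29 between in vivo oocyte and blastocyst, but 0 of the 16 between oocyte groups. The spread of the compared groups alone gave 0 calls between oocyte groups, from oocyte to zygote, from zygote to 2-cell and from morula to blastocyst. It gave 36 calls from 4-cell to 8-cell, 33 from 8-cell to morula and 24 from oocyte to blastocyst. Fewer arrays estimate the spread in this setting. The SD of members in in vivo oocytes ran from 0.04 (EXOSC10) to 3.84 (NOP2). The reason for the lost calls was not tested. Without a trend, 0 were called from zygote to 2-cell. With spike-in centring 9 were called between oocyte groups, 0 from oocyte to zygote (where the members' median turned from -0.11 to 0.01) and 0 from zygote to 2-cell; the cause was not tested. That centring moved the median of all probe sets from 0.02 to 0.14 from oocyte to zygote, from 0.02 to -0.41 from 2-cell to 4-cell, from -0.03 to -0.13 from 4-cell to 8-cell and from -0.03 to -0.39 from oocyte to blastocyst. With the replicate number as a block, 15, 2, 2, 0, 33, 26, 1 and 29 members were called in the 8 comparisons in the order of the oocyte comparison, the 6 steps and oocyte to blastocyst, so the count moved from 1 to 2 from zygote to 2-cell. Without the 4 arrays with markers of other cells (in vivo oocyte 2, 2-cell 1, 4-cell 1, blastocyst 1), 27 were called between oocyte groups, 13 from oocyte to zygote, 2 from zygote to 2-cell and 2 from morula to blastocyst. Leaving out single arrays gave 8 to 26 calls between oocyte groups, 1 to 14 from oocyte to zygote, 0 to 7 from zygote to 2-cell, 0 to 0 from 2-cell to 4-cell, 30 to 34 from 4-cell to 8-cell, 25 to 29 from 8-cell to morula, 1 to 2 from morula to blastocyst and 28 to 33 from oocyte to blastocyst. A group left with 1 array was assumed to vary like the others. Shares of all genes called were counted in the main fit only. For genes below a log2 value of 4, signal over background limits the size of a change.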

Other observations

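Within the 8-cell group, arrays 2 and 3 read alike and arrays 1 and 4 read alike in several genes. EXOSC2 read 10.13 and 10.08 on arrays 1 and 4 and 11.62 and 11.52 on arrays 2 and 3, and POLR1D read 12.23 and 11.98 against 13.06 and 12.94. POLR1B (9.90 and 9.92 against 10.51 and 10.73) and POLR1F (9.67 and 9.81 against 10.64 and 11.02) were ordered in the same way, while NOL10 was higher on arrays 1 and 4 (13.67 and 13.93 against 13.51 and 13.61). Among oocyte markers, BMP15 read 6.94 and 7.55 on arrays 1 and 4 and 10.88 and 11.32 on arrays 2 and 3, and MOS read 6.46 and 6.59 against 10.65 and 10.70. KRT18 was ordered the other way, with 8.61 and 8.40 on arrays 1 and 4 and 2.37 and 2.15 on arrays 2 and 3. The labels give all 4 arrays the same stage, and the arrays were compared here only by their values.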
